A study of Mus musculus with 12 samples.

Results

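Mouse muscle stem cells (MuSCs) were profiled by RNA sequencing in 12 libraries, and 9 genes are described here. They are the forkhead transcription factor genes Foxo1, Foxo3, Foxo4 and Foxo6, the ligand gene Igf1, the receptor genes Insr and Igf1r, and the adaptor genes Irs1 and Irs2. They were chosen by name among the 55335 genes of the count files, each symbol was found exactly once, and all 9 passed the filter on low counts that left 22635 genes for testing. The cells came from hindlimb muscle of Pax7-ZsGreen mice aged 3 to 6 months, in which a fluorescent reporter marks Pax7-expressing cells, and were isolated by flow sorting.

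The libraries formed 4 groups of 3. Freshly isolated cells (F) were lysed at the sort and never cultured. Cells of 2d-U were cultured for 2 days without compression on plastic coated with Matrigel and fibronectin, in medium with FGF, horse serum, fetal bovine serum and chicken embryo extract. Cells of 5d-U stayed uncompressed in that medium for 5 days. Cells of 2+3d-C were cultured for 2 days uncompressed and then for 3 days under a pillar device that presses on the apical surface, so 5d-U is the control of the same age. Serum contains insulin-like factors, and all cultured groups were grown in it whereas F was not cultured. Whether F cells met serum before the sort is not stated. The labels give replicate numbers but do not say that libraries came from separate animals or cultures, so p-values measure the spread between these libraries only. Library totals ranged from 12540745 reads in 2+3d-C replicate 5 to 62424851 reads in 2+3d-C replicate 4.

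Insulin and IGF-1 bind the receptor tyrosine kinases encoded by Insr and Igf1r, which phosphorylate the adaptor proteins IRS1 and IRS2 and through them activate PI3-kinase and Akt. Akt phosphorylates FoxO factors, which then leave the nucleus, so that FoxO target genes are active when the pathway is quiet. In skeletal muscle the pathway is known for growth of myofibers, and FoxO factors are known for atrophy genes in myofibers and for the maintenance of quiescence in MuSCs. Transcript levels say nothing of the phosphorylation of these proteins, which was not measured in these files.

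Levels are given as RPKM, read counts scaled by exon length and library size, and log2 fold changes come from edgeR's quasi-likelihood test across all genes, with the standard error (SE) and the Benjamini-Hochberg adjusted p. The threshold for a call was an adjusted p of 0.05. In bulk libraries, fewer cells of one type cannot be told apart from less RNA per cell.

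All 8 MuSC markers on the list had more than 3 reads in each F and each 2+3d-C library, and their summed level lay between 782 and 1980 RPKM in F, between 851 and 1010 in 2d-U, between 835 and 1430 in 5d-U and between 5210 and 6260 in 2+3d-C. Myod1, a gene of activated myogenic cells, and Sdc4 made up most of the sum in 2+3d-C (means of 3190 and 1900 RPKM), where Pax7 and Calcr were at 13.3 and 13 RPKM, and Myf5, Itga7 and Cdh15 were not called against 5d-U. In 2d-U replicates 2 and 3 and in 5d-U replicate 2, Calcr was at 0. Markers of other cell types were abundant in F. The 6 immune markers summed to 1280, 644 and 444 RPKM in F replicates 1, 4 and 5, led by Lyz2 or Cd74, to at most 0.998 in 2d-U, to 82, 1.12 and 4.59 in 5d-U replicates 1, 2 and 6, and to 28, 71.9 and 23 in 2+3d-C replicates 4, 5 and 10. The 5 fibroadipogenic markers, led by Dcn in F, summed to 501, 1300 and 1300 RPKM in F, to at most 2.17 in 2d-U, to 12.3, 6.07 and 34 in 5d-U and to 61.5, 172 and 67.2 in 2+3d-C. The 5 endothelial markers summed to 138, 151 and 180 RPKM in F, at most 0.896 in 2d-U and to 4.65, 0.363 and 0.528 in 5d-U, and the compressed libraries had 29.8, 13.9 and 33.3. The immune genes Ptprc and Adgre1 were at 0 in all 3 libraries of 2d-U and of 2+3d-C, whereas in 2+3d-C Lyz2 was at 21.2, 53.4 and 3.96 RPKM and Cd74 at 2.37, 13.7 and 18.8, and the fibroadipogenic gene Pdgfra was at 0 in all 3 of 2d-U.

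Reads on gene families that muscle does not use (olfactory, vomeronasal and taste receptors, defensins and hair keratin-associated proteins, 1549 genes) separated 4 libraries from the rest. Their density was 5.08 and 7.25 reads per kb of exon in F replicates 4 and 5 and 3.78 and 0.646 in 5d-U replicates 1 and 6, and at most 0.24 in the other 8. At that density 81.5% of the Foxo4 reads in F replicate 5 and 70.6% of the Foxo6 reads in 5d-U replicate 1 would be matched by background alone, against 0.404% of the Irs2 reads in F replicate 5. Where a call on the 9 genes depends on these 4 libraries, its log2 fold change without them is given. The same holds for the genes named by rule from the 4 pathway lists in 2+3d-C against 5d-U and in 2d-U against F. Without them F and 5d-U keep 1 library each, which is assumed to vary like the other groups.

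Foxo1 was the most abundant FoxO gene in all 12 libraries. Foxo1 (ENSMUSG00000044167.6, mm10 chr3:52268336-52353221, plus strand) encodes the FoxO factor best known for control of metabolism and of cell-cycle exit. Its level was 15.8, 14 and 13.3 RPKM in F replicates 1, 4 and 5, and 1.66, 0.601 and 1.08 in 2d-U replicates 1, 2 and 3. It was 1.78, 2.07 and 1.99 RPKM in 5d-U replicates 1, 2 and 6, and 12.6, 8.88 and 11.1 in 2+3d-C replicates 4, 5 and 10. The 6 F and 2+3d-C libraries were all above the 6 uncompressed cultures, and F was above 2+3d-C without overlap. Foxo1 fell by 3.69 on the log2 scale from F to 2d-U (SE 0.452, edgeR adjusted p = 8.86e-05, 14.4 against 1.12 RPKM). Compressed cells had 5.59 times the level of 5d-U (log2 fold change 2.48, SE 0.429, edgeR adjusted p = 0.00109) and 9.75 times that of 2d-U (3.28, SE 0.444, edgeR adjusted p = 0.000149). Against F, compressed cells did not pass (log2 fold change -0.40, SE 0.407, edgeR adjusted p = 0.513). The call against 5d-U held when each library was left out in turn, with log2 fold changes of 2.35 to 2.78, but not without the 4 libraries with reads on silent families (2.39, adjusted p = 0.107).

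Foxo3, which encodes a factor known for protein breakdown, autophagy and stress resistance, was low in all groups. Foxo3 (ENSMUSG00000048756.11, chr10:42181841-42276755, minus strand) was 0.852, 1.15 and 0.862 RPKM in F and 0.394, 0.461 and 0.497 in 2d-U. It was 1.03, 0.507 and 0.853 RPKM in the 5d-U libraries and 0.889, 1.12 and 1.41 in the compressed ones. All 2d-U libraries were below all others, and the other groups overlapped. The difference of 2d-U from F did not pass in edgeR (log2 fold change -1.08, SE 0.656, adjusted p = 0.183) but did in DESeq2 (-1.26, adjusted p = 0.0145) and in edgeR with the compared groups alone (-1.19, 0.0477). Compressed cells against 5d-U gave a log2 fold change of 0.51 (SE 0.651, edgeR adjusted p = 0.55). Against 2d-U they did not overlap and did not pass in edgeR (1.34, SE 0.66, adjusted p = 0.153), but passed in DESeq2 (1.29, adjusted p = 0.0138).

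Foxo4 and Foxo6 were near the limit of detection in part of the libraries. Foxo4 (ENSMUSG00000042903.8, chrX:101254528-101260873, plus strand), the X-linked member of the family, had 0 reads in 2d-U replicate 2 and in 2+3d-C replicate 5, and its highest level was 0.603 RPKM, 46 reads, in 2+3d-C replicate 10. No comparison of Foxo4 passed, and the SE of its fold changes was at least 1.56. Foxo6 (ENSMUSG00000052135.8, chr4:120267079-120287349, minus strand), a member best known in brain that differs from the others in shuttling little out of the nucleus, was 1.16, 2.67 and 2.21 RPKM in F and 0.6, 0 and 0.508 in 2d-U. It was 0.233, 0.213 and 0.0748 RPKM in 5d-U, from 14, 16 and 4 reads, and 5.56, 0.185 and 3.15 in 2+3d-C, from 776, 4 and 180 reads. Compressed replicates 4 and 10 were thus above every 5d-U library, while replicate 5, the shallowest library, lay among them. The mean of compressed cells was 17.1 times that of 5d-U and did not pass in edgeR (log2 fold change 4.08, SE 1.46, adjusted p = 0.0567), though it did in DESeq2 (4.27, adjusted p = 0.00325), without the filter on low counts (4.31, edgeR adjusted p = 0.0114), without 2+3d-C replicate 5 (4.63, edgeR adjusted p = 0.0243), without 2d-U replicate 2 (4.08, edgeR adjusted p = 0.0252) and with the expected background reads subtracted (4.93, edgeR adjusted p = 0.0341). Foxo6 passed against 5d-U in 2 of the 12 edgeR fits that left out 1 library, and without 2+3d-C replicate 4 the value was 3.25 (adjusted p = 0.164). Against 2d-U, with overlapping libraries, Foxo6 did not pass in edgeR (3.00, SE 1.38, adjusted p = 0.125) and passed in DESeq2 (2.99, adjusted p = 0.0439).

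**Figure D1:**
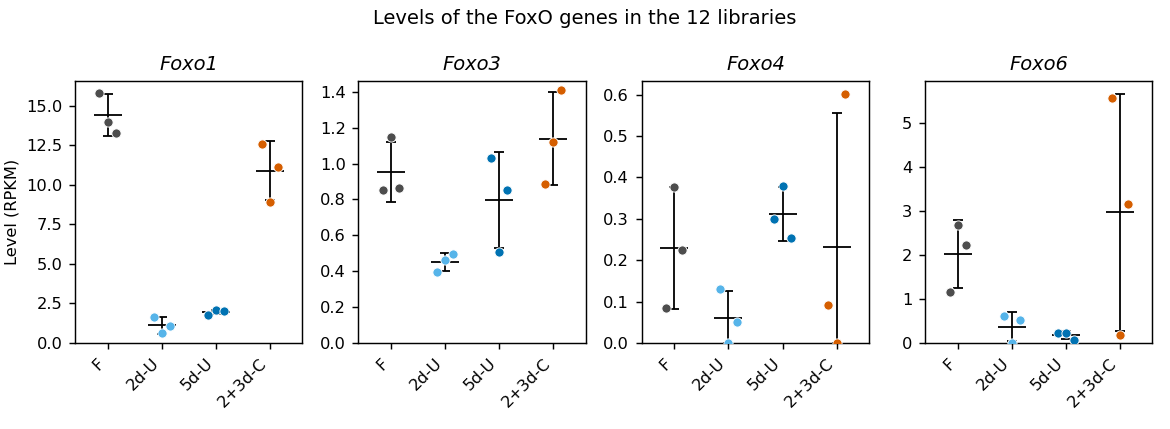
Levels (RPKM, linear axes that differ between panels) of the 4 FoxO genes in the 12 libraries. Points are libraries, horizontal bars the mean of 3 libraries and vertical bars the SD, cut at 0. Foxo1 lies between 8.88 and 15.8 RPKM in F and 2+3d-C and between 0.601 and 2.07 in the uncompressed cultures.

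Per length, Foxo1 made up between 77 and 88.3% of the summed FoxO level in F libraries, between 50.6 and 59.7% after 2 days of culture (2d-U), between 53.2 and 65.3% after 5 days (5d-U) and between 65.9 and 87.2% in compressed cells. The share of Foxo3 was 4.75 to 6.29% in F and reached 43.4% in 2d-U replicate 2, where Foxo4 and Foxo6 had no reads. The groups F and 2d-U did not overlap in the share of Foxo1, nor did 2+3d-C and 5d-U, whose nearest libraries were at 65.9 and 65.3%.

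Igf1 was expressed in F and nearly lost after 2 days of culture. Igf1 (ENSMUSG00000020053.18, chr10:87858265-87937042, plus strand) encodes IGF-1, the growth factor ligand of IGF1R, which fibroadipogenic and immune cells of muscle are known to secrete. Its level was 2.92, 10.2 and 9.31 RPKM in F replicates 1, 4 and 5. The 3 libraries of 2d-U had 0, 3 and 0 reads. In 5d-U it had 168, 13 and 36 reads (0.738, 0.0458 and 0.178 RPKM), and in 2+3d-C replicates 4, 5 and 10 it had 921, 41 and 1 reads (1.74, 0.5 and 0.00461 RPKM). F was above all cultured libraries, and the compressed libraries overlapped those of 5d-U. Against a floor of 3 reads per library, Igf1 was at least 923-fold lower in 2d-U than in F (edgeR adjusted p = 0.00125) and at least 92.5-fold higher in compressed cells than in 2d-U (edgeR adjusted p = 0.00678), a limit that was 31.1 without 2+3d-C replicate 4. The compressed libraries overlapped 2d-U, since 2+3d-C replicate 10 with 1 read lay below 2d-U replicate 2 at 0.0119 RPKM. Both calls were lost without the 4 libraries with reads on silent families. The fitted log2 fold changes, which are no bounds, were then -9.64 in 2d-U against F and 7.70 in 2+3d-C against 2d-U. With all 12 libraries they were -11.16 and 7.86. Igf1 was lower in 5d-U than in F (log2 fold change -4.54, SE 1.44, edgeR adjusted p = 0.0368). That call was lost without F replicate 4 (-4.25, 0.0897), F replicate 5 (-4.35, 0.0902), 5d-U replicate 2 (-4.01, 0.098) or 5d-U replicate 6 (-4.24, 0.119), and the value moved to -6.05 without 5d-U replicate 1 and to -5.25 without F replicate 1. Compressed cells did not pass against 5d-U (1.24, SE 1.27, edgeR adjusted p = 0.458) or against F (-3.31, SE 1.36, edgeR adjusted p = 0.112). Without 2+3d-C replicate 4 the value against F was -4.94. Igf1 was lowest among the F libraries in replicate 1, where the fibroadipogenic markers were lowest and the immune markers highest. That library was also lowest of F in endothelial, glial and mature myofiber markers (15.7 RPKM summed for the last, against 1490 and 805). It was highest in MuSC and in smooth muscle or pericyte markers. Its log2 CPM correlated with F replicates 4 and 5 at 0.869 and 0.873, and theirs with each other at 0.971. The part of these cell types in the Igf1 level was not tested.

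Among the receptors, Igf1r was higher in F and in compressed cells than in 2d-U, and Insr passed no comparison in the main edgeR analysis. Igf1r (ENSMUSG00000005533.10, chr7:67952827-68233668, plus strand), the IGF-1 receptor gene, was 1.54, 2.19 and 2.03 RPKM in F and 0.508, 0.385 and 0.858 in 2d-U. It was 1.04, 0.465 and 0.548 RPKM in the 5d-U libraries and 2.82, 1.91 and 2.82 in the compressed ones. The F and 2+3d-C libraries overlapped each other and were all above the uncompressed cultures. Igf1r was 3.67 times higher in compressed cells than in 5d-U (log2 fold change 1.87, SE 0.514, edgeR adjusted p = 0.0175), 4.31 times higher than in 2d-U (2.11, SE 0.518, edgeR adjusted p = 0.00914) and lower in 2d-U than in F (-1.72, SE 0.511, edgeR adjusted p = 0.0193). The call against 5d-U was lost without 5d-U replicate 2 (1.65, adjusted p = 0.0791), 5d-U replicate 6 (1.73, 0.0884) or 2+3d-C replicate 4 (1.78, 0.052), with total library sizes in place of TMM scaling (1.68, 0.0519), with the compared groups alone (1.90, 0.0511) and without the 4 libraries with reads on silent families (2.44, 0.144). The call against 2d-U was lost without 2d-U replicate 1 (2.01, 0.0559) or replicate 2 (1.87, 0.0681) and without TMM scaling (1.55, 0.0641). The call of 2d-U against F was lost without F replicate 4 (-1.60, 0.0639), F replicate 5 (-1.67, 0.0573), 2d-U replicate 1 (-1.61, 0.0865) or 2d-U replicate 2 (-1.47, 0.0914), without the filter on low counts (-1.62, 0.0553) and without the 4 libraries with reads on silent families (-1.38, 0.213).

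Insr (ENSMUSG00000005534.10, chr8:3122061-3279617, minus strand), the insulin receptor gene, was 0.639, 1.12 and 2.1 RPKM in F and 0.215, 0.131 and 0.351 in 2d-U. It was 0.911, 0.277 and 0.185 RPKM in the 5d-U libraries and 0.705, 0.0264 and 0.705 in the compressed ones, where the low value of replicate 5 rests on 3 reads. F was above 2d-U without overlap, and the compressed libraries overlapped both uncompressed groups. The difference of 2d-U from F did not pass in edgeR (log2 fold change -2.47, SE 1.02, adjusted p = 0.0584) and did in DESeq2 (-2.68, adjusted p = 0.021), and it passed in edgeR without F replicate 1 (-2.88, 0.0401), without 2+3d-C replicate 5 (-2.45, 0.0261), without 2+3d-C replicate 10 (-2.45, 0.0442), without the filter on low counts (-2.36, 0.0458) and with the compared groups alone (-2.58, 0.0126). Compressed cells against 5d-U gave 0.07 (SE 0.965, edgeR adjusted p = 0.96). Per length, the ratio of Igf1r to Insr was 4 in both 2+3d-C replicates 4 and 10 (exact 95% intervals for counting error 3.63 to 4.4 and 3.44 to 4.66), 0.967 to 2.41 in F, 2.37 to 2.94 in 2d-U and 1.15 to 2.96 in 5d-U. In 2+3d-C replicate 5 it was 72.3, from 3 reads of Insr, with an interval of 24.5 to 353. The 3 compressed libraries had the highest ratios of the 12, but the intervals of replicates 4 and 10 overlapped those of 2d-U replicate 2 (2.11 to 4.17) and 5d-U replicate 6 (2.17 to 4.11).

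The adaptor genes Irs1 and Irs2 stood in opposite order in the groups. Both proteins carry the signal from the receptors to PI3-kinase, and Irs2 is a known target of FoxO factors in liver. Their sequences just upstream of the RefSeq start are shown because each holds the letters CACGTG, the E-box of basic helix-loop-helix factors, next to TGTTTTG, one spelling of the insulin response sequence that FoxO factors are known to bind. Both are printed 5′ to 3′ on the gene's own strand from GRCm38.p6, the assembly also named mm10, as the 250 bases before the start, with the matches in capitals. Irs1 is chr1:82291440-82291689 and Irs2 is chr8:11008930-11009179, both read from the minus strand.
Irs1: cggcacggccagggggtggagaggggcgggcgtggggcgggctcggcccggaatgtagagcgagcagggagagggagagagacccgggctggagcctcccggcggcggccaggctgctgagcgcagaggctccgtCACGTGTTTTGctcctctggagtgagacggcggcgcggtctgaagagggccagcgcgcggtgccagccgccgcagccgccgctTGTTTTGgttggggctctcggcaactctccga
Irs2: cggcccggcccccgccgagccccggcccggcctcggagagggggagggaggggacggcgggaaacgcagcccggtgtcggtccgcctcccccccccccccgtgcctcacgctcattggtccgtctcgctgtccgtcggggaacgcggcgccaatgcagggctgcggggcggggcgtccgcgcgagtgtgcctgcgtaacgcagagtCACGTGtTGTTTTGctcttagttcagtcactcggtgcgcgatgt
In Irs1 the E-box begins 115 bases before the start and runs into the first TGTTTTG, which begins at 111 and shares its first bases, and a second TGTTTTG begins at 32. In Irs2 the E-box begins at 44 and TGTTTTG at 37, with 1 base between them. On either strand, TGTTTTG is in 5.56%, CACGTG in 6.02% and both are in 0.295% of 32851 promoter windows of that length, and these motifs were chosen after the sequences were seen. The forkhead consensus GTAAACA, in 3.17% of windows, was in none of the 6 members with a window (Foxo1, Foxo3, Igf1r, Igf1, Irs1 and Irs2). A match is a description of letters, since no binding was measured.

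Irs2 had the largest change of the 9 genes between compressed and uncompressed cells at 5 days. Irs2 (ENSMUSG00000038894.7, chr8:10984681-11008458, minus strand) was 28.5, 26 and 45.4 RPKM in F and 2.85, 1.73 and 1.67 in 2d-U. It was 4.93, 1.25 and 0.511 RPKM in the 5d-U libraries and 99.9, 46.3 and 33.2 in the compressed ones. The highest uncompressed library was 5d-U replicate 1 and the lowest of the other 6 was F replicate 4, with no overlap. Irs2 fell by 4.00 on the log2 scale from F to 2d-U (SE 0.738, edgeR adjusted p = 0.00142). It was 26.8 times higher in compressed cells than in 5d-U (log2 fold change 4.74, SE 0.765, edgeR adjusted p = 0.000664) and 28.7 times higher than in 2d-U (4.84, SE 0.768, edgeR adjusted p = 0.000491). Both calls held in the 12 fits that left out 1 library and in the 7 other settings, with values of 3.80 to 6.07 against 5d-U and 3.97 to 5.13 against 2d-U. The value against 5d-U was 6.07 without 5d-U replicate 1, and without 2+3d-C replicate 4 the values were 4.15 and 4.25. Against F the compressed cells did not pass (0.85, SE 0.658, edgeR adjusted p = 0.378). The exons of Irs2 overlap 9530052E02Rik over 2.56% of their length, and that gene had at most 24 reads in a library.

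Irs1 (ENSMUSG00000055980.2, chr1:82233101-82291416, minus strand) was 0.264, 0.334 and 0.545 RPKM in F and 1.93, 1.44 and 1.05 in 2d-U. It was 0.932, 1.25 and 0.551 RPKM in the 5d-U libraries and 0.392, 0.0132 and 0.195 in the compressed ones, where replicate 5 had 1 read. Every uncompressed library was above every F and every 2+3d-C library, by a narrow margin between 5d-U replicate 6 and F replicate 5. Irs1 was lower in compressed cells than in 2d-U (log2 fold change -2.85, SE 0.929, edgeR adjusted p = 0.0375). That call held in 2 of the 12 fits that left out 1 library, in which the adjusted p ranged from 0.0225 to 0.114 and the log2 fold change from -3.75 (without 2+3d-C replicate 4) to -2.32. The 10 libraries without which it was lost are F replicates 1, 4 and 5 (adjusted p = 0.0513, 0.054 and 0.0507), 2d-U replicates 1, 2 and 3 (0.114, 0.0828 and 0.0601), 5d-U replicates 2 and 6 (0.0541 and 0.0502) and 2+3d-C replicates 5 and 10 (0.057 and 0.0679). The call was also lost with the compared groups alone (-2.85, edgeR adjusted p = 0.0901) and without the 4 libraries with reads on silent families (-2.86, 0.112). Against 5d-U it did not pass in edgeR (-2.15, SE 0.905, adjusted p = 0.0913) and passed in DESeq2 (-1.95, adjusted p = 0.0405). Nor did 2d-U against F (1.95, SE 0.897, edgeR adjusted p = 0.0819), which passed without 2+3d-C replicate 5 (1.97, edgeR adjusted p = 0.0377) and with the compared groups alone (1.84, 0.0169). The exons of Irs1 overlap Gm9747, at 0 reads in all libraries, over 30.9% of their length, so its level per length may be understated. In F replicates 4 and 5, 48.9 and 33.7% of its reads would be matched by the density on silent families.

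The ratio of Irs2 to Irs1 per length was 108, 77.8 and 83.2 in F libraries. In the uncompressed cultures it was 1.47, 1.2 and 1.6 at 2 days and 5.29, 1 and 0.927 at 5 days. In 2+3d-C it was 255 in replicate 4 (exact 95% interval for counting error 221 to 296) and 170 in replicate 10 (124 to 240). In replicate 5 it was 3510, with an interval of 629 to 139000 because Irs1 had 1 read there. The ratio thus lay between 0.927 and 1.6 in 5 of the 6 uncompressed libraries and at 5.29 (4.51 to 6.23) in 5d-U replicate 1, all below those of F and compressed cells, as the plot of both levels shows. In F replicates 4 and 5 the ratio may be too low, since 48.9 and 33.7% of the Irs1 reads would be matched by the density on silent families. In all libraries it may be too high if reads on exons shared with Gm9747 went uncounted.

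**Figure D2:**
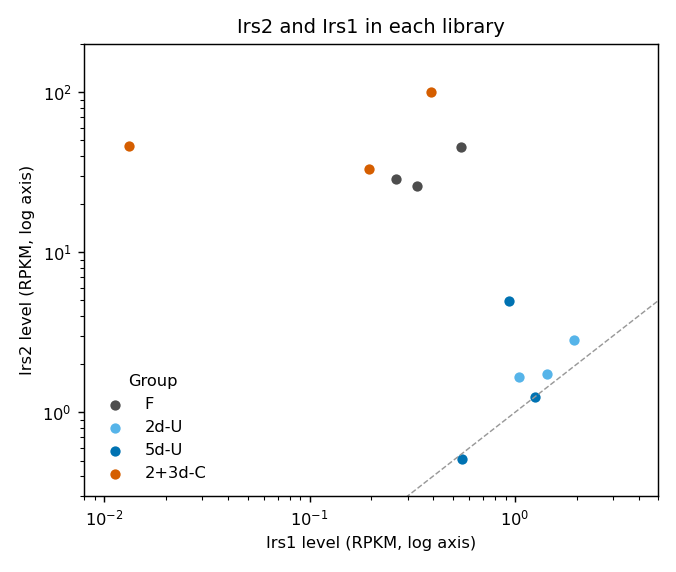
Level of Irs2 against level of Irs1 (RPKM, both axes logarithmic) in the 12 libraries, coloured by group. The dashed line marks equal levels. Of the uncompressed libraries 5 lie near the line and 5d-U replicate 1 lies above it at a ratio of 5.29, and those of F and 2+3d-C lie at an Irs2 level of 26 RPKM or more.

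**Figure D3:**
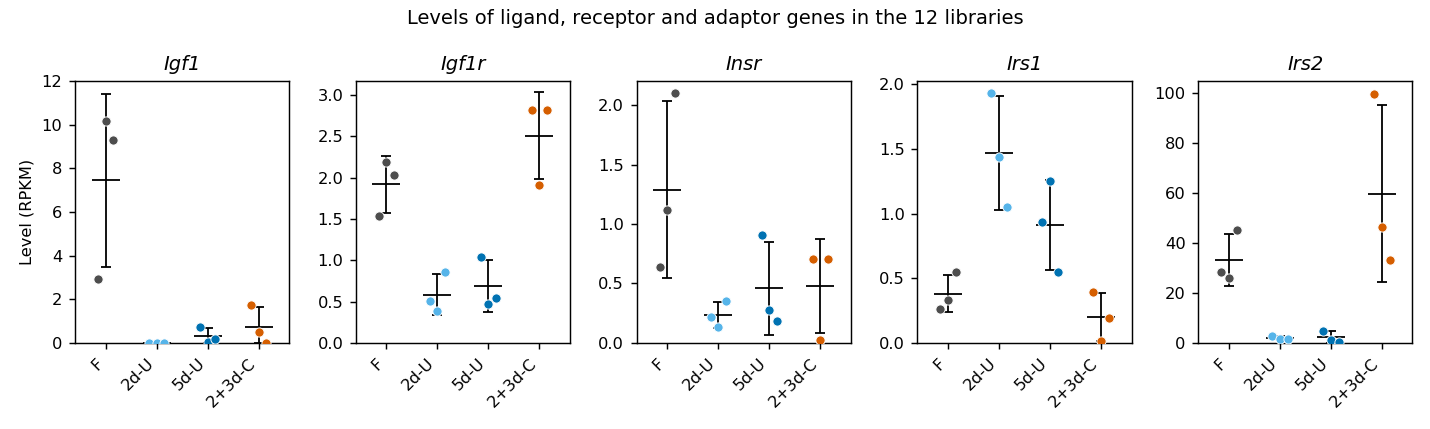
Levels (RPKM, linear axes that differ between panels) of the ligand, receptor and adaptor genes in the 12 libraries, with the mean of 3 libraries as horizontal bars and the SD as vertical bars, cut at 0. Igf1r and Irs2 are high in F and 2+3d-C, Irs1 is high in the uncompressed cultures, and Igf1 is high in F.

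The effect of 3 days of compression is addressed by 2+3d-C against 5d-U. Foxo1, Igf1r and Irs2 were higher, 3 of the 9 members, where 9.14% of all tested genes were called higher, and none of the 9 was called lower, where 13.4% of all genes were. The median log2 fold change of the members was 1.24, beside -1.05 for all tested genes. Against 2d-U, the state at which compression began, 4 members were higher (Foxo1, Igf1r, Igf1 and Irs2), where 16% of genes were called higher, and Irs1 was lower, where 8.63% were. The medians were 2.11 for the members and 0.00 for all genes. These comparisons share the compressed libraries and are not independent of each other. The figures for all genes, here and below, can include genes with no reads in either compared group. In 2+3d-C against 2d-U, the FoxO target genes Trim63 and Pck1 were such genes and entered at 0.00. Genes with any read numbered 15467 to 17367 in 2d-U libraries, fewer than were tested, and 44817 and 47398 in F replicates 4 and 5. How far such genes and the reads on silent families move the medians of all genes was not tested.

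Freshly isolated cells were compared with each culture to follow the genes after isolation. In 2d-U against F, Foxo1, Igf1r, Igf1 and Irs2 were lower, 4 of 9, where 33.3% of genes were called lower, and no member was higher, where 10.6% were. The medians were -2.43 for the members and -1.63 for all genes. In 5d-U against F, Foxo1 (log2 fold change -2.88, SE 0.436, edgeR adjusted p = 0.000483), Igf1 and Irs2 (-3.90, SE 0.735, edgeR adjusted p = 0.00182) were lower, 3 of 9, where 8.9% of genes were called lower and 11.6% higher, and no member was higher. Without 5d-U replicate 1 the value of Irs2 was -5.21. Without the 4 libraries with reads on silent families, where each of the 2 groups keeps 1 library, the calls of Foxo1, Igf1 and Irs2 were lost. The log2 fold changes were then -2.93, -5.97 and -4.50, beside -2.88, -4.54 and -3.90 with all 12 libraries. Igf1r in 5d-U against F was at the edge (-1.49, SE 0.508, edgeR adjusted p = 0.0516) and passed in DESeq2 (-1.87, adjusted p = 0.00158), without TMM scaling (-1.75, edgeR adjusted p = 0.049), with the expected background reads subtracted (-1.78, 0.0174) and without F replicate 1 (edgeR adjusted p = 0.0374) or 2+3d-C replicate 5 (0.0488). Foxo6 did not pass in edgeR (0.174 against 2.01 RPKM, adjusted p = 0.101) and passed in DESeq2 (-3.95, adjusted p = 0.00725), without the filter on low counts (edgeR adjusted p = 0.0405), with the compared groups alone (0.0146) and with the expected background reads subtracted (0.0464).

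From 2d-U to 5d-U without compression, edgeR called 0 of the 9 members, where 1.87% of genes were called higher and 0.243% lower. At an unadjusted p under 0.05 there was 1, Igf1 (81 times the 2d-U mean, at least 39.6-fold over the floor and 13.8-fold without 5d-U replicate 1, edgeR adjusted p = 0.0631), which DESeq2 called (adjusted p = 0.0029). It also passed in edgeR without 5d-U replicate 2 (adjusted p = 0.0311), 2+3d-C replicate 4 (0.0352) or 2+3d-C replicate 10 (0.00813), and without the filter on low counts (2.77e-08). Between 2+3d-C and F, edgeR and DESeq2 each called 0 of the 9, where edgeR called 1.94% of genes higher and 4.47% lower. Igf1 was again the 1 gene with an unadjusted p under 0.05 (edgeR adjusted p = 0.112), and it passed without the filter on low counts (-3.22, edgeR adjusted p = 0.00114). The count of members stayed at 0 in the 12 fits that left out 1 library, although the number of all genes called between these groups ranged from 248 without F replicate 4 to 10063 without F replicate 1. A difference that did not pass does not show equal levels, and the SE on the log2 scale was 0.407 for Foxo1, 0.498 for Igf1r and 0.658 for Irs2. The culture medium, the time since isolation and the markers of other cells also differ between F and the compressed cells, and cannot be told apart from compression in that comparison.

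**Figure D4:**
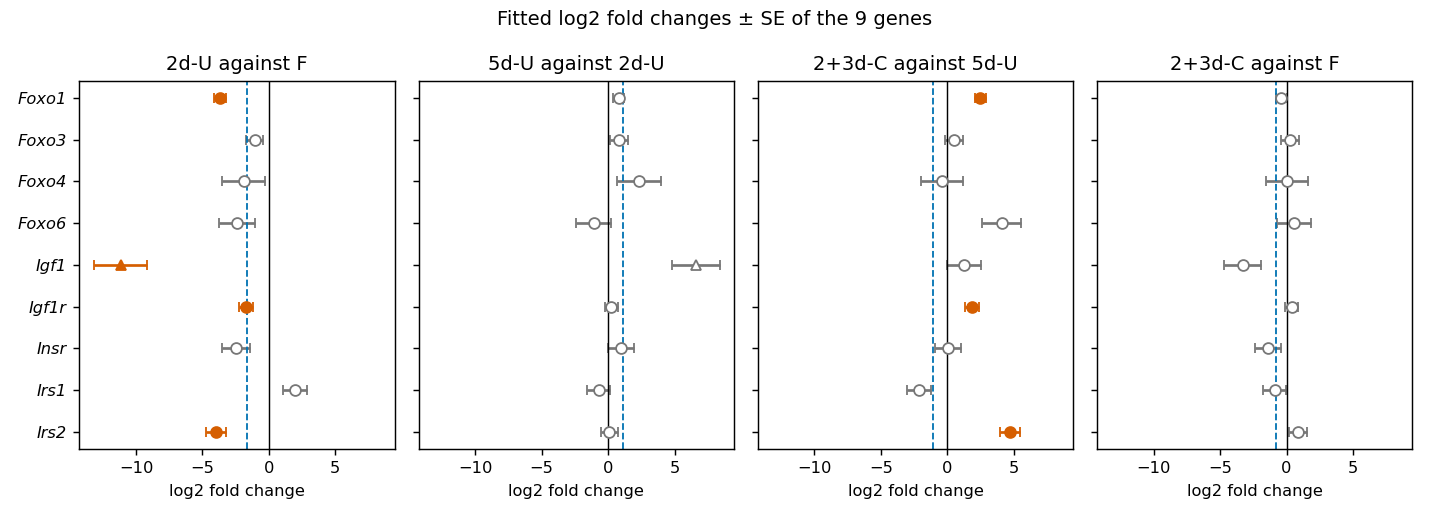
Fitted log2 fold changes (points) with their SE (bars) of the 9 genes in 4 comparisons. Filled points were called at an edgeR adjusted p under 0.05, the dashed line is the median of all 22635 tested genes, and triangles mark Igf1 where a group had at most 3 reads in every library, so that the fitted value is no bound. Foxo1 and Irs2 sit at -3.69 and -4.00 in 2d-U against F and at 2.48 and 4.74 in 2+3d-C against 5d-U.

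The markers of other cells moved with part of these results. Between 2+3d-C and 5d-U, where Foxo1, Igf1r and Irs2 were higher, 4 of 5 endothelial, 2 of 5 fibroadipogenic, 3 of 4 smooth muscle or pericyte and 2 of 3 glial markers were higher, 1 of 6 immune markers was higher and 1 lower, and 5 of 8 MuSC markers were higher. Of the 5 mature myofiber markers none was higher and 2 were lower, Acta1 (39.3 against 577 RPKM, edgeR adjusted p = 0.0275) and Tnnt3 (13.5 against 287 RPKM, edgeR adjusted p = 0.0384). In 2d-U against F, where Foxo1, Igf1r, Igf1 and Irs2 were lower, all immune, endothelial, fibroadipogenic, smooth muscle or pericyte, glial and myofiber markers were lower, and of the 8 MuSC markers 3 were lower and 1 higher. The part of such cells in the levels of the 9 genes was not tested.

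Of the 13 other ligands, binding proteins and receptors on the list, 11 could be tested. In 2+3d-C against 5d-U, 2 were higher and 2 lower, 18.2% each, beside 9.14 and 13.4% of all tested genes. Igfbp4, which encodes a secreted protein that holds IGFs away from their receptor, was 3.8, 7.51 and 9.77 RPKM in 5d-U, compared with 31.4, 28.6 and 32.6 in 2+3d-C (log2 fold change 2.13, SE 0.435, edgeR adjusted p = 0.0031). Igfbp3, the main IGF carrier of plasma, moved the other way, from 41.3, 54.2 and 25.3 RPKM to 8.79, 14.1 and 4.12 (-2.17, SE 0.47, edgeR adjusted p = 0.0046), and it was also lower than in F (-2.68, SE 0.479, edgeR adjusted p = 0.00819). For neither gene did the groups overlap. The other called genes, named after their values were seen, were Igfbp5, higher (39.7 against 1.07 RPKM, edgeR adjusted p = 0.0068), and Igfbp2, lower (1.47 against 97.9 RPKM, edgeR adjusted p = 0.0193). Igfbp7 and Igfbp6 had the highest mean levels of the list. They were 163 and 31.6 RPKM in 2+3d-C against 59.8 and 11.7 in 5d-U, and neither passed (edgeR adjusted p = 0.146 and 0.16), though both did without 5d-U replicate 6 (0.0186 and 0.0359) and without the filter on low counts (0.00863 and 0.0297). In 2d-U against F, 8 of the 11 were lower and none higher, beside 33.3 and 10.6% of all genes, among them Igfbp4 (3.14 against 59.5 RPKM, edgeR adjusted p = 5.26e-05), Igfbp6 (1.12 against 255 RPKM, edgeR adjusted p = 0.000145) and Igfbp7 (7.09 against 589 RPKM, edgeR adjusted p = 0.000317).

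Of the 24 genes for other adaptors and for PI3-kinase and Akt signalling, 23 could be tested. In 2+3d-C against 5d-U, 6 were higher and 3 lower (26.1 and 13%), beside 9.14 and 13.4% of all genes, with a list median of 0.34 beside -1.05. Sgk1, a kinase gene of the Akt family whose product also phosphorylates FoxO factors, was 23.2, 12.5 and 6.5 RPKM in 5d-U, compared with 340, 288 and 547 in 2+3d-C (log2 fold change 4.80, SE 0.554, edgeR adjusted p = 5.21e-05), and 688, 352 and 388 in F. Like Irs2, it fell from F to 2d-U (-4.59, SE 0.548, edgeR adjusted p = 7.26e-05). Gab1, a docking protein that recruits PI3-kinase, was 0.488, 0.282 and 0.231 RPKM in 5d-U, compared with 6.24, 1.16 and 9.39 in 2+3d-C (4.07, SE 0.729, edgeR adjusted p = 0.00135, and 3.48 without 2+3d-C replicate 10). Shc1, Pik3ca, Akt2 and Ptpn1 were the other higher genes and Grb14, Pik3cb and Pik3cd the lower ones, all named after their values were seen. Akt1 was the second most abundant of the list and did not pass (69.8 RPKM in 2+3d-C against 83.2 in 5d-U, edgeR adjusted p = 0.732), whereas Akt2 did (43.3 against 7.7 RPKM, edgeR adjusted p = 0.00159). In 2d-U against F, 9 of the 23 were lower (39.1%) and 1 higher (4.35%), near the 33.3% lower of all genes and below the 10.6% higher. The higher gene was Akt1 (184 against 54.4 RPKM, log2 fold change 1.76, edgeR adjusted p = 0.0255). That call was lost without F replicate 1 or 5 or any single 2d-U replicate (edgeR adjusted p up to 0.0676). It was also lost without the 4 libraries with reads on silent families (log2 fold change 2.23).

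Of the 11 genes of the mTOR complexes and their inputs, all tested, 1 was higher and 1 lower in 2+3d-C against 5d-U, 9.09% each beside 9.14 and 13.4% of all genes. Akt1s1, which encodes the mTORC1 inhibitor PRAS40, was 52, 62.2 and 101 RPKM in 5d-U, compared with 11.2, 20.9 and 13.8 in 2+3d-C (log2 fold change -2.23, SE 0.433, edgeR adjusted p = 0.00232). Of the 11, 2 were higher and 1 lower in 2d-U against F (18.2 and 9.09%), beside 10.6 and 33.3% of all genes. Akt1s1 was higher (2.23, SE 0.433, edgeR adjusted p = 0.00193). Rictor, the defining subunit of mTORC2, which phosphorylates Akt, was 2.93, 1.71 and 0.953 RPKM in 5d-U, compared with 7.1, 5.35 and 2.99 in 2+3d-C. Its call against 5d-U (1.46, SE 0.482, edgeR adjusted p = 0.0415) was lost without F replicate 4 or 5, any single 2d-U replicate, 5d-U replicate 2 or 6, or 2+3d-C replicate 4 or 5 (adjusted p up to 0.164), without TMM scaling (0.111) and with the compared groups alone (0.104). Rictor was lower in 2d-U than in F (1.18 against 4.28 RPKM, edgeR adjusted p = 0.0107), a call lost without 2d-U replicate 3 (0.0553). Eif4ebp1, the translational repressor that mTORC1 inactivates, and Rheb, the GTPase that activates mTORC1, were the most abundant and did not pass against 5d-U (171 against 341 and 115 against 66.7 RPKM, edgeR adjusted p = 0.131 and 0.294). Eif4ebp1 was higher in 2d-U than in F (2.02, SE 0.514, edgeR adjusted p = 0.00905), a call lost without the 4 libraries with reads on silent families (1.71, adjusted p = 0.156).

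The list of known FoxO target genes, drawn from work in liver, muscle and cultured cells, held 22 genes, 21 of them tested. In 2+3d-C against 5d-U, 3 were higher and 2 lower (14.3 and 9.52%), beside 9.14 and 13.4% of all genes, so the counts stood near the background. The list median was 0.98, beside -1.05 for all tested genes. Gabarapl1, an autophagosome gene, was 14.2, 24.8 and 22.6 RPKM in 5d-U, compared with 155, 288 and 126 in 2+3d-C (log2 fold change 3.20, SE 0.424, edgeR adjusted p = 0.000157). Txnip, which encodes a protein that restrains glucose uptake, was 2.52, 0.19 and 0.204 RPKM in 5d-U, compared with 25.3, 6.88 and 16.3 in 2+3d-C (4.06, SE 0.909, edgeR adjusted p = 0.00563), a value of 6.35 without 5d-U replicate 1. Both were lower in 2d-U than in F, Gabarapl1 with 16.5 against 86.8 RPKM (edgeR adjusted p = 0.000866) and Txnip with 0.804 against 75.1 RPKM (edgeR adjusted p = 0.000478). Named after their values were seen, Bcl2l11, which encodes the apoptosis inducer BIM, was the other higher gene, and the lower ones were Bbc3, which encodes the apoptosis inducer PUMA, and the atrophy gene Trim63, listed at 0 reads in all 3 compressed libraries.

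The most abundant genes of that list were Cited2 and Cdkn1a, neither called against 5d-U. Cited2, a transcriptional coregulator, was 102, 76.9 and 337 RPKM in 5d-U, compared with 354, 696 and 387 in 2+3d-C, all above 5d-U (log2 fold change 1.48, SE 0.55, edgeR adjusted p = 0.0646). It passed in DESeq2 (adjusted p = 0.024). In edgeR it passed without TMM scaling (adjusted p = 0.0234), without the filter on low counts (0.00362) and with the expected background reads subtracted (0.0346). It also passed without F replicate 1 (edgeR adjusted p = 0.0127) or 5d-U replicate 6 (0.00504), and without the 4 libraries with reads on silent families (log2 fold change 2.64). It was the list's sole higher gene in 2+3d-C against F (2.68, SE 0.573, edgeR adjusted p = 0.0194). Cdkn1a, the cell-cycle inhibitor p21, was 182, 170 and 770 RPKM in 5d-U, compared with 153, 505 and 215 in 2+3d-C, with overlapping groups (edgeR adjusted p = 0.634). In 2d-U against F, 12 of the 21 were lower and 1 higher, beside 33.3 and 10.6% of all genes. The higher gene was Cited2 (199 against 74.8 RPKM, edgeR adjusted p = 0.0498). That call was lost in DESeq2 (adjusted p = 0.0751). In edgeR it was lost without F replicate 4 or 5 or any single 2d-U replicate (adjusted p up to 0.141). It was also lost without the 4 libraries with reads on silent families (log2 fold change 0.77). In 2+3d-C against 2d-U, 9 were higher and 1 lower, beside 16 and 8.63%. Of the list genes named by rule, Igfbp4, Gab1 and Rictor lost their call against 5d-U without the 4 libraries with reads on silent families. Their log2 fold changes were then 2.04, 4.32 and 1.59, beside 2.13, 4.07 and 1.46 with all 12 libraries. Igfbp3, Sgk1, Akt1s1, Gabarapl1 and Txnip kept their calls in that setting. In the same setting Gab1, Rictor and Cdkn1a lost their calls as lower in 2d-U than in F, beside Akt1, Eif4ebp1 and Cited2 above. The log2 fold changes of Gab1, Rictor and Cdkn1a were then -3.42, -1.86 and -1.36. The call of Cdkn1a (48.2 against 140 RPKM, edgeR adjusted p = 0.0457) was also lost without F replicate 4 or 5 (0.111 and 0.08) or any single 2d-U replicate (0.0926 to 0.103).

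**Figure D5:**
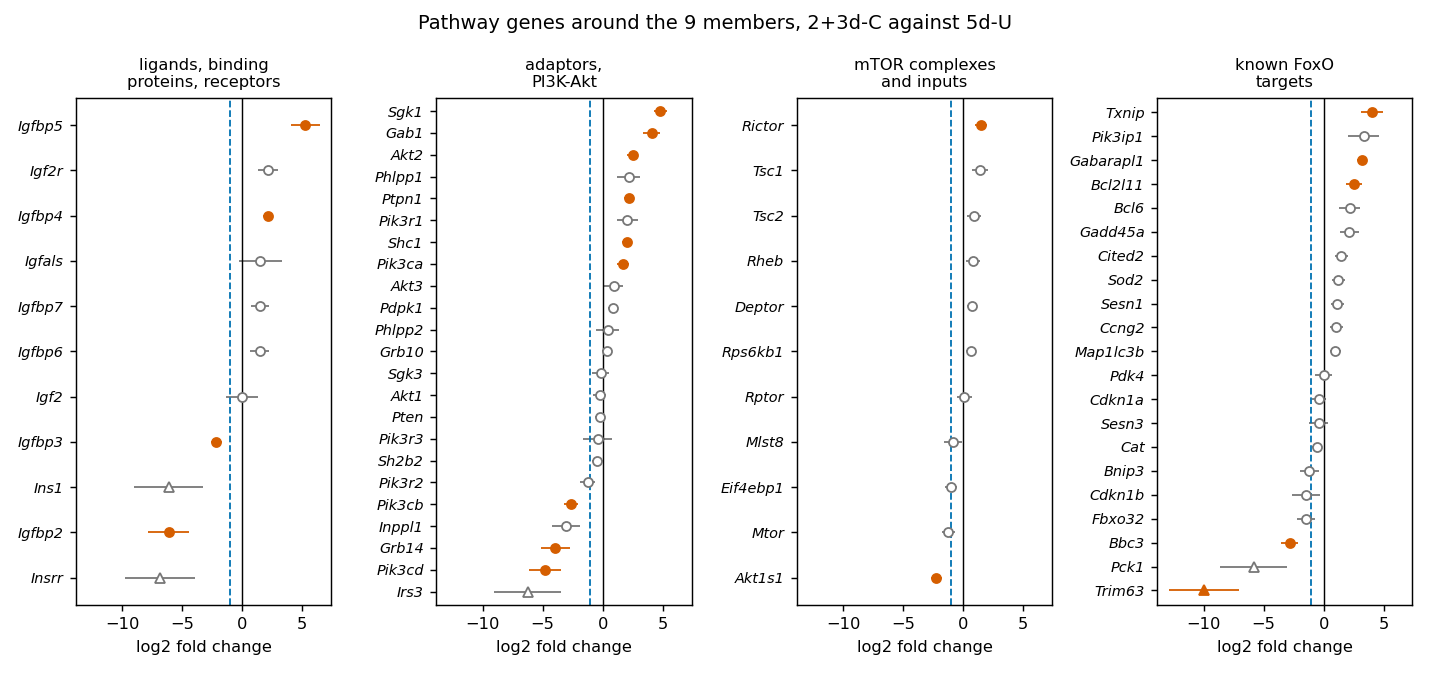
Fitted log2 fold changes in 2+3d-C against 5d-U (horizontal axis) with their SE for the tested genes of the 4 lists, sorted within each list. Filled points were called at an edgeR adjusted p under 0.05, the dashed line is the median of all tested genes at -1.05, and triangles mark genes with at most 3 reads in every library of a group. Sgk1 and Gab1 lead their list at 4.80 and 4.07, and Akt1s1 is the lowest of the mTOR list at -2.23.

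For each member with a mean of at least 5 CPM, counts scaled by library size, the most similar genes over the 12 libraries were taken by Pearson's r of log2 CPM among 10766 genes at that level, as a description over libraries that share their groups. Foxo1 was closest to Dgka and Dgkh (r = 0.983 and 0.981), both diacylglycerol kinase genes. Irs2 was closest to Noct and to the Notch ligand gene Jag1 (both r = 0.976), and Igf1r to the cytokine gene Lif (0.973) and to Slc26a11 (0.969). Irs1 was closest to Ttc13 (0.984) and to Cad (0.973), which encodes the enzyme that starts pyrimidine synthesis. Igf1 was closest to Itga1 (0.989) and Plcb1 (0.986), Insr to Apbb2 (0.945), and Foxo3 to Ryr3 (0.929) and Sox5 (0.919). Among the members themselves, r was 0.88 between Foxo1 and Irs2, 0.89 between Foxo1 and Igf1r, and -0.64 between Foxo1 and Irs1. Foxo4 and Foxo6 had means of 0.725 and 3.61 CPM and were not compared.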

How the data were processed

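The authors aligned single-end reads of 75 bases, made with the SMART-seq v4 kit, to mm10 using nf-core/rnaseq, and read counts per gene of GENCODE vM23 (release 23) came from featureCounts 1.6.4, with strand ignored. The deposited files hold these raw counts with exon lengths, 1 file per library, without normalization. A merged table of counts was not used. Depth was 12540745 to 62424851 counted reads per library, which limits genes of few reads. Intervals and floors cover counting error only.

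Counts of all 12 libraries were fitted together with edgeR 4.0.16 (R 4.3.3) after filterByExpr and TMM scaling, with groups as the design and p-values adjusted over 22635 genes for each of 6 comparisons. RPKM used the TMM-scaled library sizes and the files' exon lengths. The floor was 3 reads per library. The scripts were tested on simulated counts. Alternatives were DESeq2 1.42.0, library sizes without TMM, no filter, the compared groups alone, a replicate block, subtraction of reads expected from silent families, leaving out each library, and, chosen after seeing the data, leaving out 4 libraries.

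The members and lists were chosen with earlier results of these data known. Named genes were the 9 members, the 2 most similar genes of each member, and of each pathway list the 2 with the highest mean RPKM and the 2 with the smallest p in each of 2+3d-C against 5d-U and 2d-U against F. A gene that this rule names is not reported here. Promoter windows are from RefSeq on GRCm38.p6 and matched 6 of the 9 members.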

Additional observations from a re-analysis of the deposited data

How the results depend on the processing

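No member called in the main analysis changed direction in any setting, and every reversal below is of a value that was not called; where no cause is named, the cause was not tested. Of the other values of the members, 595 from leaving out 1 library and 299 from the other settings kept their direction and their side of the threshold, 23 and 23 lost a call, and 11 and 24 gained one. Irs2 stayed called throughout in compressed cells against either uncompressed group.

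The replicate block was not taken as a pairing, because the labels do not say which libraries share a sorted batch. The paper states that sorted cells of a batch were allotted at random to the conditions. Libraries with the same number did not deviate together (correlations of deviations 0.021, -0.424, 0.032, -0.149, -0.026 and -0.053). Reads on silent families also differ within F and within 5d-U, so these correlations cannot exclude a shared batch. The block left 2 residual degrees of freedom. With the replicate block, members called were 1 in 2+3d-C against 5d-U, 2+3d-C against 2d-U, 2+3d-C against F, 5d-U against 2d-U and 5d-U against F, and genes called were 1926 in 2+3d-C against 2d-U, 2739 in 2d-U against F and 1261 in 5d-U against F. The block ended the calls of Foxo1 (2.31, edgeR adjusted p = 0.169) and Igf1r (0.87, 0.714) in 2+3d-C against 5d-U. In 2+3d-C against 2d-U it ended those of Foxo1 (3.24, 0.0625), Igf1r (1.53, 0.687), Igf1 (4.81, 0.0873) and Irs1 (-4.60, 0.223). Igf1r in 2d-U against F (-1.39, 0.525) and Foxo1 (-2.67, 0.115) and Igf1 (-2.66, 0.158) in 5d-U against F also lost theirs. Igf1 gained a call in 2+3d-C against F (-3.37, 0.016) and 5d-U against 2d-U (5.51, 0.00771). Of the list genes named by rule, the block ended the calls of Igfbp4, Igfbp3, Gab1, Akt1s1 and Rictor in 2+3d-C against 5d-U (adjusted p = 0.351, 0.208, 0.191, 0.0742 and 0.483) and of Akt1, Gab1, Eif4ebp1, Rictor, Cited2 and Cdkn1a in 2d-U against F (0.188, 0.0702, 0.34, 0.357, 0.658 and 0.355), and Cited2 gained one in the former (0.0245). Values that reversed with the block were, in 2+3d-C against 5d-U, Foxo6 (-0.41), Insr (-3.45), Igf1 (-0.70), Igfbp6 (-0.07), Eif4ebp1 (0.12) and Cdkn1a (0.44), in 2+3d-C against 2d-U, Foxo4 (-2.88) and Insr (-1.86), in 2+3d-C against F, Foxo4 (-2.97) and Foxo6 (-1.07), in 5d-U against 2d-U, Foxo6 (1.04), and in 5d-U against F, Foxo3 (0.00) and Insr (0.29).

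DESeq2 called 5 members and 7701 genes in 2+3d-C against 5d-U, 5094 genes in 2+3d-C against F, 1 member and 3349 genes in 5d-U against 2d-U, and 5 members in 5d-U against F, and reversed Foxo4 in 2+3d-C against F (-0.18) and in 5d-U against F (-0.00) and Irs2 in 5d-U against 2d-U (-0.05). Total library sizes without TMM called 171 genes in 5d-U against 2d-U and reversed Insr in 2+3d-C against 5d-U (-0.12), Foxo3 (-0.22), Foxo4 (-0.34) and Igf1r (-0.08) in 2+3d-C against F, and Igf1r (-0.13) and Irs2 (-0.12) in 5d-U against 2d-U. Dropping TMM moved the median of all genes by -0.16 in 2+3d-C against 5d-U, by -0.48 in 2+3d-C against F and in 5d-U against 2d-U and by -0.29 in 5d-U against F, and the share of higher among called genes from 64.9 to 44.7% in 2+3d-C against 2d-U, from 30.2 to 10.4% in 2+3d-C against F and from 88.5 to 73.7% in 5d-U against 2d-U. With DESeq2, counted over the 22635 genes tested in edgeR whereas its calls above are over all genes with a read, that share was 16.8% in 2+3d-C against F and 41.6% in 5d-U against F, against 56.6% with TMM in the latter.

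Without the filter on low counts, 1 member and 2794 genes were called in 2+3d-C against F and 1 member and 2066 genes in 5d-U against 2d-U, where Igf1r (-0.06) and Irs2 (-0.19) reversed. With the compared groups alone, 3 members were called in 2+3d-C against 2d-U, 7 in 2d-U against F and 768 genes in 5d-U against 2d-U, and Foxo3 (-0.01) and Foxo4 (-0.19) in 2+3d-C against F and Igf1r (-0.05) and Irs2 (-0.09) in 5d-U against 2d-U reversed. Subtracting the reads expected from silent families called 5 members in 5d-U against F and 139 genes in 5d-U against 2d-U, and reversed Foxo4 in 2+3d-C against 5d-U (0.05) and Igf1r (-0.07) and Irs2 (-0.03) in 5d-U against 2d-U. Without the 4 libraries with reads on silent families, a setting with fewer samples chosen after seeing the data, members called were 1 in 2+3d-C against 5d-U, 3 in 2+3d-C against 2d-U, 2 in 2d-U against F and 0 in 5d-U against F, genes called were 1138, 3325, 19 (2+3d-C against F), 11 (5d-U against 2d-U), 1695 (2d-U against F) and 173 (5d-U against F), and Igf1r (-0.34) and Irs2 (-0.75) in 5d-U against 2d-U and Cdkn1a (0.77) in 2+3d-C against 5d-U reversed.

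Leaving out 1 library, members called were 3 to 5 in 2+3d-C against 2d-U and 0 to 1 in 5d-U against 2d-U. Genes called were 3065 to 5267 in 2+3d-C against 5d-U (fewest without 5d-U replicate 6), 248 to 10063 in 2+3d-C against F (fewest without F replicate 4, most without F replicate 1), 153 to 1334 in 5d-U against 2d-U (fewest without 2d-U replicate 3, most without 2+3d-C replicate 10), 5060 to 16533 in 2d-U against F (fewest without F replicate 5, most without F replicate 1) and 3028 to 5287 in 5d-U against F (fewest without 5d-U replicate 6). Values that reversed ranged, in 2+3d-C against 5d-U, from -2.56 to 0.15 for Foxo4, -0.41 to 2.76 for Igf1, -0.31 to 1.05 for Insr, -0.68 to 0.69 for Akt1, -0.06 to 1.27 for Rheb and -1.03 to 0.71 for Cdkn1a. In 2+3d-C against 2d-U, Foxo4 ranged from -0.24 to 3.08, and in 2+3d-C against F, Foxo4 from -2.10 to 0.60 and Foxo6 from -0.25 to 1.13. In 5d-U against 2d-U, Igf1r ranged from -0.20 to 0.62, Insr from -0.01 to 1.40 and Irs2 from -1.23 to 0.57. In 5d-U against F, Foxo3 ranged from -0.74 to 0.00 and Foxo4 from -0.36 to 1.01, and in 2d-U against F, Rheb from -0.74 to 0.26. Counting error limits Foxo4, Foxo6, Igf1, Insr and Irs1, which had 4 reads or fewer in at least 1 library, not always a shallow one.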
